A study of Mus musculus with 8 samples.

Results

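RefSeq noncoding RNAs are transcripts that the RefSeq catalogue lists without a protein product, and on the array they carry accessions that begin with NR_. The 2463 probes described here are all non-control probes of the array with such an accession, of 56605 distinct probes in all. They stand for 2334 accessions and 2263 gene symbols. A further 14 probes of 6 imprinted noncoding RNA genes were not analysed here. No measured value entered the choice. By the class of their gene in RefSeq, 2031 probes belong to long noncoding RNA (lncRNA) genes, 283 to pseudogenes, 80 to protein-coding genes with a noncoding transcript variant, 29 to small structural RNAs and 13 to other RNA classes, and 27 could not be classified.

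Cardiac mesenchymal stromal cells (cMSCs) are the fibroblast-like cells of the heart stroma. They were sorted as Sca-1+ and PDGFRα+ cells without CD31 and CD45 from digested ventricles of C57Bl/6 male mice, which carried no treatment. Young mice were 5 months and aged mice 20 months old by the labels. RNA of 4 young pools (replicates 2 to 5) and 4 aged pools (replicates 1 to 4), each from 3 mice by the design text, went to 1 Agilent 1-colour array per pool, and the label code of aged replicate 4 can also be read as fewer mice. A pool averages its mice, so the spread between pools understates the spread between animals.

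LncRNAs are long transcripts that act, where a role is known, as scaffolds or guides for proteins in the nucleus, as decoys, as precursors of small RNAs, or through the act of transcription at their locus. Pseudogenes are copies of coding genes that have lost the ability to make the protein, and some are still transcribed. Small nucleolar and other structural RNAs guide the modification of ribosomal and spliceosomal RNA or form the core of RNA-protein enzymes. The labelling kit primes from poly(A) tails, a tail that mature small structural RNAs mostly lack. In heart stroma, lncRNAs are known mainly as regulators of fibroblast activation and as hosts of microRNAs.

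The probes are 60 bases long, and those on which the results below turn are shown first, as the array files give them. Capitals mark the longest run that a probe shares with a probe of a related coding gene, and a sequence without capitals shares no run of 15 bases with one. The first 4 belong to lncRNAs, the others to pseudogenes. The array files give their positions on the mm9 build, and the Pisd-ps3 probe has none. An annotation of mm9 was not used here, so exons and introns are not named.
Miat, chr5:112642308-112642367, minus strand: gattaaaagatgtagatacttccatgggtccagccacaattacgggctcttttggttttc
Dnm3os, chr1:164152691-164152750, plus strand: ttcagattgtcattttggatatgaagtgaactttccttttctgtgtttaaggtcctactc
Pvt1, chr15:62074057-62074116, plus strand: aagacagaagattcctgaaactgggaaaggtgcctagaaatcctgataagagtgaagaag
6430411K18Rik, chr12:110830889-110830948, plus strand: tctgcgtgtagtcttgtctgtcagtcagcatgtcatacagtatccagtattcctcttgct
H2-Q5, chr17:35532392-35532451, plus strand: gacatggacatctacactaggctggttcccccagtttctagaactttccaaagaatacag
H2-K2, chr17:34111920-34111979, minus strand: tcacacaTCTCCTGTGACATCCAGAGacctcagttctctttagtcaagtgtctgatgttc
Serpina3h, chr12:105491733-105491792, plus strand: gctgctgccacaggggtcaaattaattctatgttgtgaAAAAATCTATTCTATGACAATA
Marcksl1-ps4, chr13:4248964-4249023, plus strand: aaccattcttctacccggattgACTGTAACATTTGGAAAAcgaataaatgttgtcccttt
Pisd-ps3: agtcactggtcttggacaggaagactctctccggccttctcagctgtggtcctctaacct
The H2-K2 probe shares 19 bases with a probe of H2-Q7, the Serpina3h probe 22 bases with one of Serpina3i, and the Marcksl1-ps4 probe 18 bases with one of Marcksl1. The array files also list the H2-K2 probe for predicted coding transcripts, and the Pisd-ps1 probe and the Pisd-ps3 probe shown here for each other's accession. For these probes, signal of the pseudogene and of its relatives may not be separable. Probes were compared with other probes and not with whole transcripts. The same limit may thus hold for the other pseudogene probes, that of H2-Q5 included.

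Noncoding RNA probes gave signal in sorted cMSCs less often than probes of coding transcripts. A probe was well above background when the scanner software so marked its spot. On the young arrays this held for 34.67% (replicate 2), 33.47% (replicate 3), 39.52% (replicate 4) and 34.47% (replicate 5) of the 2463 probes, with a mean of 35.5% ± 2.71 (SD, n = 4). On the aged arrays it held for 37.6%, 35.08%, 34.06% and 36.22% (replicates 1 to 4), with a mean of 35.7% ± 1.52 (SD, n = 4). The groups overlapped, and the highest share was on a young array. Probes of coding transcripts lay far above on every array, at 69.6% ± 2.12 in young and 69.8% ± 1.25 in aged pools (SD, n = 4 each). Among the noncoding probes, those of lncRNA genes were detected less often (31.4% ± 2.69 and 31.5% ± 1.77) than those of transcribed pseudogenes (49.5% ± 3.63 and 50.7% ± 0.46), on all 8 arrays.

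**Figure D1:**
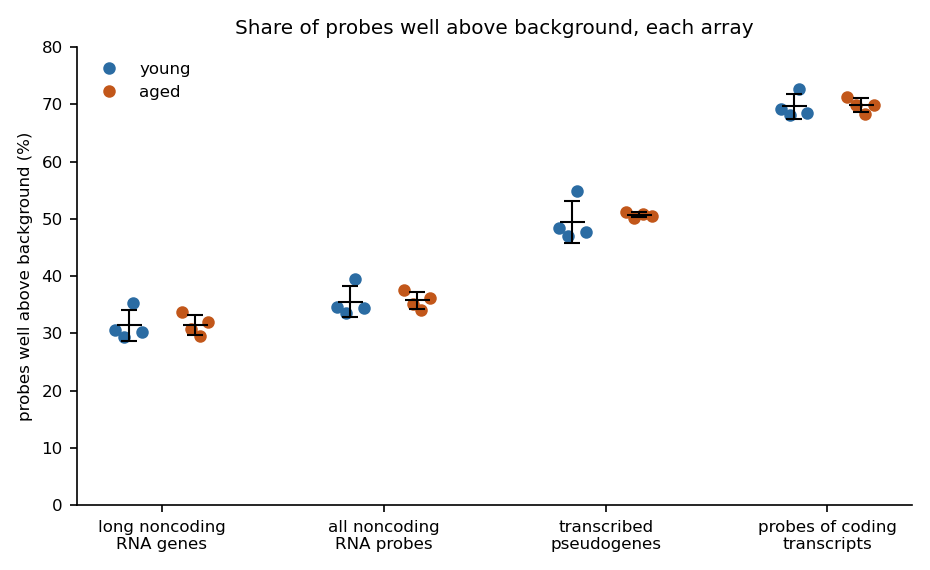
Share of probes well above background (vertical axis, percent) on each of the 4 young (blue) and 4 aged (orange) arrays, for lncRNA genes, all 2463 noncoding RNA probes, transcribed pseudogenes and probes of coding transcripts; black bars are mean ± SD. In every class the young and aged arrays overlap, and each class has its own level, from about 31.4% for lncRNA genes to 69.8% for coding transcripts.

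Of the 2463 probes, 706 (28.7%) were well above background on all 8 arrays and 1285 (52.2%) on none. A probe was kept for testing when the mark was set on each of the 4 arrays of the young group, the aged group or both, which held for 781 noncoding RNA probes (31.7%) of 731 symbols, against 55.5% of all other probes. Of these, 55 were kept through the aged and 20 through the young group alone, and no probe was above background on all arrays of one group and none of the other. By class, 557 of 2031 lncRNA probes (27.4%), 134 of 283 pseudogene probes (47.3%), 45 of 80 probes of coding genes (56.2%) and 26 of 29 probes of small structural RNAs (89.7%) were kept. Probes for symbols that are only a RIKEN clone name were kept in 343 of 1292 cases (26.5%). The GC content of the probes had a median of 43.3% among kept and 40.0% among other noncoding RNA probes.

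Levels below are log2 intensities relative to each array's 75th percentile, so that a value of 0 is as bright as that percentile, and they compare pools for 1 probe, not 1 probe with another. Differences are log2 fold changes (log2FC) of aged minus young pools from limma, with a standard error (SE) and a p-value adjusted by Benjamini-Hochberg over all 30824 kept probes of the array. A probe is said to have risen or fallen at an adjusted p under 0.05. In pools of cells, a change in the number of cells of one kind and a change in RNA per cell cannot be told apart. Nothing in the labels says more of how pools were formed, so p-values measure the spread between pools.

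In aged cMSCs, 20 of the 781 tested noncoding RNA probes rose (2.56%) and 1 fell (0.128%). Over all tested probes of the array, 1.93% rose and 0.603% fell. The share that rose was thus near the share over the array. Groups did not overlap, with every aged pool above every young pool, for 58 noncoding RNA probes (7.43%, against 6.11% of all probes), and with every aged pool below for 11 (1.41%, against 3.95%). At the thresholds of the study's methods, an unadjusted p of 0.01 and a log2FC beyond 0.5, 31 probes were higher and 3 lower in aged pools, where the shares over the array are 2.95% and 1.2%. The median log2FC of the 781 probes was 0.048 and that of all tested probes -0.003. Of the 557 lncRNA probes, 352 had a log2FC above 0, with a median of 0.082, where 15116 of the 30824 tested probes of the array were above 0. By signal, the median was 0.092 in the dimmest and -0.001 in the brightest of 3 equal groups of the 781 probes.

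**Figure D2:**
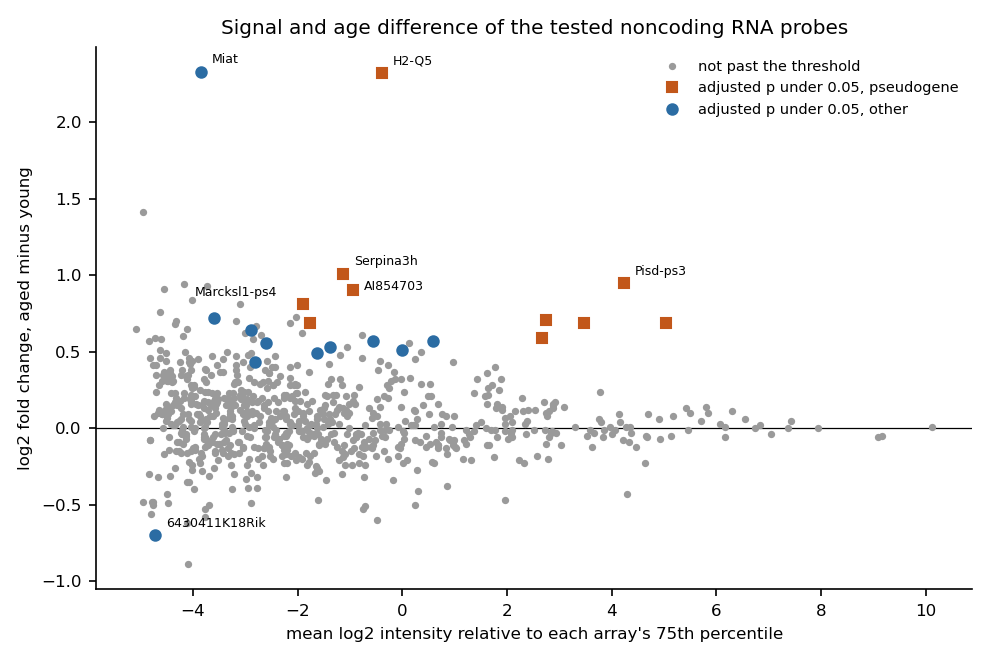
Each point is one of the 781 tested noncoding RNA probes, with its mean log2 intensity relative to the 75th percentile of each array (horizontal axis) and its log2FC, aged minus young (vertical axis); squares are pseudogenes and large circles other probes past an adjusted p of 0.05. The 20 increases lie between 0.43 and 2.33 and the only decrease, of 6430411K18Rik, at -0.70, while dim probes on the left scatter more widely around 0 than bright ones.

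Some markers of other cells moved with age in the same pools. The 8 cMSC markers were all tested, with a median log2FC of -0.10 and summed levels (on a linear scale, relative to the 75th percentile) of 542 to 606 in young and 544 to 568 in aged pools, and none passed. Thy1 had a log2FC of -0.71 (adjusted p = 0.0557, limma) and Col1a1 -0.37 (adjusted p = 0.117), with every aged pool below every young pool. Ly6a had 0.67 (adjusted p = 0.0559), with every aged pool above. The groups of the other cMSC markers overlapped, with log2FC of -0.20 to 0.01. Of 8 leukocyte markers, all tested, S100a9 (4.33) and Ly6g (0.74), which mark neutrophils, rose, and the sum of the list was 6.39 to 10.6 in young and 10.4 to 19 in aged pools. S100a9 was above background on 3 of 4 young and all 4 aged arrays, so it was tested through the aged group alone. The other 6 did not pass, with log2FC of 0.07 for Ptprc, 0.07 for Csf1r, 0.10 for Cd68, -0.01 for Adgre1, 0.52 for Lyz2 and 0.77 for Cd52. Of 6 mesothelial markers, 3 were tested, Dmkn rose (3.98), and Wt1 (0.75, adjusted p = 0.425) and Msln (-0.63, adjusted p = 0.833) did not pass. Lrrn4 was above background on no array. Krt19 and Upk3b were not tested, with mean levels of -4.62 and -6.42 in young and -5.04 and -6.41 in aged pools. The mesothelial sum was 0.282 to 0.416 against 1.14 to 1.64. Most of the aged sum was Dmkn, whose mean level was -4.08 in young and -0.09 in aged pools. Of 8 cardiomyocyte markers, 7 were tested and Pln fell, with sums of 9.03 to 11.1 against 5.25 to 9.01. All 7 had a log2FC below 0, from -0.21 for Nppa to -0.90 for Pln. Every aged pool lay below every young pool for Pln, Tnni3 (-0.32, adjusted p = 0.0628, limma) and Actc1 (-0.53, adjusted p = 0.186). Pln was above background on all 4 young and 2 aged arrays, so it was tested through the young group alone. No marker of the endothelial, smooth muscle and pericyte, or Schwann lists passed, of 6, 4 and 1 tested. Among these, Tek (-0.33, adjusted p = 0.148, limma) and Myh11 (-0.61, adjusted p = 0.16) had every aged pool below every young pool. The groups of the others overlapped. The part of such cells in the noncoding RNA differences was not tested.

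Pseudogenes made up 10 of the 20 increases. They were 134 of the 781 tested probes, and 7.46% of them rose, against 1.62% of lncRNA probes (9 of 557). Of the 10 pseudogene probes, 7 belong to the class I histocompatibility, Serpina3, Pisd and Marcksl1 families, whose coding members were on the array as well. The median log2FC of the pseudogene probes was -0.004, so that most of them lay near the rest of the array.

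Miat, the myocardial infarction associated transcript, is a lncRNA retained in the nucleus, and the increase of its probe was close in size to that of H2-Q5, the other large one. Its level was -4.70, -5.35, -5.08 and -4.90 in young replicates 2 to 5 and -2.33, -2.71, -2.47 and -3.21 in aged replicates 1 to 4. Every aged pool lay above every young pool, by over 1 unit. The log2FC was 2.33 (SE 0.209, adjusted p = 0.00114, limma), and 2.35 and 2.30 within the slide rows, each of which held 4 arrays. The signal is dim, above background on 3 of 4 young and all 4 aged arrays, so the probe was kept for testing through the aged group alone. The size depends on the processing, with a log2FC of 0.96 (adjusted p = 0.0032) with normexp background correction and 1.38 in the authors' table, where H2-Q5 had 1.99 and 2.17. A second Miat probe with a RefSeq accession, was above background on 1 young and no aged array, and 2 further probes of other accessions on none. The increase thus rests on 1 of 4 probes for this gene.

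Dnm3os is transcribed from the strand opposite to dynamin 3 and is the precursor of miR-199a and miR-214, microRNAs known from fibroblasts. Its level was 0.48, 0.14, 0.33 and 0.30 in young replicates 2 to 5 and 0.85, 0.86, 0.97 and 0.85 in aged replicates 1 to 4, so the groups did not overlap and the aged pools lay close together. The log2FC was 0.57 (SE 0.091, adjusted p = 0.0147, limma), or 1.49-fold. Without aged replicate 3 the log2FC was 0.54 and the adjusted p 0.0599. The 3 probes of dynamin 3 itself, a membrane-scission enzyme, had log2FC of -0.09, -0.24 and -0.68, none past the threshold. RefSeq places the hairpins Mir199a-2 and Mir214 inside Dnm3os on its strand. Their mature sequences are shown because they are what this transcript is known to yield, with the seed (bases 2 to 8) in capitals.
miR-199a-5p: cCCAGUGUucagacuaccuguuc
miR-199a-3p: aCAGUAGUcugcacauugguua
miR-214-5p: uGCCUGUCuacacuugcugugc
miR-214-3p: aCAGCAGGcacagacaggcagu
No seed is shared among these. Mature microRNAs are not measured by this assay.

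Pvt1, a lncRNA whose gene lies beside the transcription factor gene Myc, rose by 1 of its tested probes. The probe shown above read -1.84, -1.93, -1.82 and -1.96 in young replicates 2 to 5 and -1.21, -1.38, -1.49 and -1.5 in aged replicates 1 to 4. Its groups did not overlap, with a log2FC of 0.49 (SE 0.091, adjusted p = 0.0278, limma). A second probe, at chr15:62081020-62081079, read 0.11, -0.17, -0.13 and -0.46 in young and 0.54, 0.52, 0.36 and 0.19 in aged pools. Its groups did not overlap either, and its log2FC was of similar size, at 0.56 (SE 0.134), with an adjusted p of 0.0731. Of 3 further Pvt1 probes, with other accessions, 0 were tested. The probe shown above has 28 bases in common with a probe that the array design places in an interval around this locus, whose log2FC was 0.47 (adjusted p = 0.128). Myc had log2FC of 0.38 and 0.24 by its probes, neither past the threshold. The Pvt1 call was lost without young replicates 2, 3, 4 or 5 or aged replicates 1, 2 or 3 (log2FC 0.43 to 0.52).

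The only decrease was that of 6430411K18Rik, a lncRNA of chromosome 12 whose gene holds the hairpin Mir433 on its strand. It read -4.44, -4.31, -4.10 and -4.63 in young replicates 2 to 5 and -4.99, -5.28, -5.23 and -4.77 in aged replicates 1 to 4. Every aged pool lay below every young pool, and the log2FC was -0.70 (SE 0.149, adjusted p = 0.0499, limma), with -0.41 and -0.98 within the slide rows. Only 2 of 4 aged arrays were above background for it. With normexp correction the log2FC was -0.22 (adjusted p = 0.598), and the call was lost in 6 of the 8 fits that left out a pool. In RefSeq order its nearest measured coding genes are Dlk1 (log2FC -0.38, adjusted p = 0.768) and Dio3 (0.35, 0.418).
miR-433-5p: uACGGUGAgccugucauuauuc
miR-433-3p: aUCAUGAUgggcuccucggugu
The mature sequences of Mir433 are given as for Dnm3os, with the seed in capitals.

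RefSeq positions give the hosts of microRNAs among these genes. A microRNA hairpin lay on the transcribed strand inside 23 of the genes, and 17 of these had a tested probe. Of the 17 probes, that of Dnm3os rose and that of 6430411K18Rik fell. Among the others, Aopep (host of Mir23b, Mir24-1 and Mir27b) had a log2FC of 0.62, Dleu2 (host of Mir16-1) -0.60, Mir22hg 0.32, Mir100hg -0.18 and Ftx 0.13, none past the threshold. Aopep is a coding gene, and the probe of its coding transcript rose (log2FC 0.56, adjusted p = 0.0233, limma).

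Pseudogene probes H2-Q5 and H2-K2, relatives of the class I histocompatibility genes, rose. These genes encode the surface molecules that present peptides to T cells. H2-Q5 read -1.52, -0.99, -1.84 and -1.85 in young replicates 2 to 5 and 0.19, 0.7, 0.68 and 1.5 in aged replicates 1 to 4. The lowest aged pool was more than 1 unit above the highest young pool, and the log2FC was 2.32 (SE 0.287, adjusted p = 0.00482, limma), or 4.98-fold. H2-K2 read 4.68, 4.86, 4.73 and 4.50 in young and 5.11, 5.32, 5.37 and 5.76 in aged pools. Its log2FC was 0.69 (SE 0.143, adjusted p = 0.0431), and that call held in 1 of the 8 fits that left out a pool. Of 23 tested probes for other class I genes with a coding or other accession, 8 rose, of 5 genes, and 0 fell, with a median log2FC of 0.67. The largest were 2 of the 4 probes of H2-Q10, at 2.89 and 2.88, where the others had 0.67 and 0.75, and the smallest was H2-Q4, at 0.07. On chromosome 17, in RefSeq order, H2-K2 neighbours H2-K1 (0.67, adjusted p = 0.0376), and H2-Q5 lies between H2-Q4 and H2-Q7. The 3 probes of H2-Q7 had log2FC of 0.64 (adjusted p = 0.0754), 0.71 (adjusted p = 0.0767) and 1.52 (adjusted p = 0.0349). By the mm9 positions of the probes, one of H2-Q8 (0.63, adjusted p = 0.0793) also lies between H2-Q5 and H2-Q7.

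Serpina3h belongs to the Serpina3 cluster of chromosome 12, serine protease inhibitors that are induced in the acute phase. It read -1.29, -1.94, -1.86 and -1.45 in young replicates 2 to 5 and -0.81, -0.88, -0.60 and -0.21 in aged replicates 1 to 4. The groups did not overlap, and the log2FC was 1.01 (SE 0.193, adjusted p = 0.0319, limma). Its call held in 2 of the 8 fits that left out a pool. Of 11 tested probes for other Serpina3 genes, 6 rose, of 5 genes, and 0 fell. Their median log2FC was 1.28. A probe listed for Serpina3f is among the 6 (log2FC 1.19, adjusted p = 0.0101, limma), at chr12:105492556-105492615. By position it lies nearer to the Serpina3h probe than to the other Serpina3f probe, at chr12:105458989-105459048. That other probe did not pass (adjusted p = 0.0924), and which gene the called one reads was not tested. The neighbours Serpina3g, at 4.10, and Serpina3i, at 1.65, both rose.

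Pisd is the mitochondrial enzyme that makes phosphatidylethanolamine from phosphatidylserine. The probe of its pseudogene Pisd-ps3 shown above read 3.92, 3.82, 3.68 and 3.64 in young replicates 2 to 5 and 4.73, 4.95, 4.71 and 4.47 in aged replicates 1 to 4. Its log2FC was 0.95 (SE 0.117, adjusted p = 0.00471, limma), with no overlap between groups. A second Pisd-ps3 probe read -2.10, -2.11, -1.96 and -2.26 against -1.57, -1.21, -1.26 and -1.62, again without overlap, with a log2FC of 0.69 (adjusted p = 0.0221), a call that held in 3 of the 8 fits that left out a pool. Pisd-ps1 read 3.12, 3.02, 3.16 and 3.16 against 3.89, 3.94, 3.82 and 3.57, also without overlap, with a log2FC of 0.69 (SE 0.100, adjusted p = 0.00943). Both probes of Pisd itself rose, by 0.56 and 0.74. All 5 of these probes rose. No called probe of either pseudogene shared 15 bases in a row with a Pisd probe. The probes were not compared with the Pisd transcript, so whether they read it as well was not tested. Another Pisd-ps3 probe, with another accession, was above background on 1 young and 3 aged arrays and was not tested.

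Marcksl1-ps4 derives from Marcksl1, an actin-binding protein related to MARCKS. It read -2.22, -2.10, -2.46 and -2.47 in young replicates 2 to 5 and -1.60, -1.66, -1.67 and -1.08 in aged replicates 1 to 4. The log2FC was 0.81 (SE 0.154, adjusted p = 0.0316, limma), with the groups apart. The parent gene had 1 probe that rose (log2FC 1.03, adjusted p = 0.0267) and another at 1.0 that did not pass (adjusted p = 0.0558). The pseudogene lies between the aldo-keto reductase genes Akr1c19 and Akr1c12, which rose as well, by 0.86 and 0.75. The Marcksl1-ps4 call held in 1 of the 8 fits that left out a pool.

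The other pseudogenes that rose were AI854703, 9030619P08Rik and Gm4956. AI854703 read -1.20, -1.54, -1.30 and -1.53 in young and -0.43, -0.71, -0.42 and -0.39 in aged pools, with a log2FC of 0.90 (SE 0.115, adjusted p = 0.0054, limma). Its aged pools all lay above its young pools. 9030619P08Rik lies next to Ly6g, a surface antigen of neutrophils, in the Ly6 region of chromosome 15. It read 2.42, 2.5, 2.39 and 2.23 in young and 3.00, 2.95, 3.02 and 3.43 in aged pools, with a log2FC of 0.71 (adjusted p = 0.0211) and no overlap. Ly6g had a log2FC of 0.74 (adjusted p = 0.0413). Gm4956 lies next to Gsta3, a glutathione transferase. It rose by 0.59 (adjusted p = 0.0377), with aged pools at 2.86 to 3.22 and young pools at 2.19 to 2.56, and Gsta3 rose by 0.54 (adjusted p = 0.011). Of the 8 fits that left out a pool, the Gm4956 call held in 1 and that of 9030619P08Rik in 3, and the Gm4956 call was also lost with median scaling and with slide row as a block.

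The other lncRNAs that rose bear clone-based or predicted names, and no role is given for them here. In each, every aged pool lay above every young pool. The log2FC was 0.72 for 1700030C10Rik (adjusted p = 0.0324), 0.64 for C230035I16Rik (adjusted p = 0.0191), 0.57 for A730063M14Rik (adjusted p = 0.0338), 0.56 for 3300005D01Rik (adjusted p = 0.0400) and 0.51 for Gm11423 (adjusted p = 0.0157). Normexp correction took 1700030C10Rik to 0.29 (adjusted p = 0.212), C230035I16Rik to 0.34 (adjusted p = 0.0920) and 3300005D01Rik to 0.34 (adjusted p = 0.1). Quantile and cyclic loess normalization lost the calls of 1700030C10Rik and 3300005D01Rik too, as did the authors' table. With median scaling, only A730063M14Rik stayed called among these lncRNAs. Among 21 alternative settings, 3300005D01Rik was called in 3, 1700030C10Rik in 6, A730063M14Rik in 10 and Gm11423 in 15. C230035I16Rik was called in 11 of the 20 that tested it. Of the 8 fits that left out a pool, 1700030C10Rik was called in 2, C230035I16Rik in 4, Gm11423 in 6, and A730063M14Rik and 3300005D01Rik in 0. A second C230035I16Rik probe, with another accession, had a log2FC of -0.19 that did not pass.

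Noncoding variants of coding genes gave 2 of the increases. Trmt61b encodes a mitochondrial tRNA methyltransferase, and RefSeq now lists the accession of its probe as a lncRNA. It rose by 0.53 (SE 0.098, adjusted p = 0.0272), from -1.74 to -1.51 in young to -1.26 to -0.93 in aged pools. A second, dimmer probe had a log2FC of 0.38 that did not pass (adjusted p = 0.416). The Trmt61b call held in 1 of the 8 fits that left out a pool and was lost with normexp (log2FC 0.39, adjusted p = 0.0603) and with median scaling. Trappc13 encodes a subunit of a vesicle tethering complex. Its noncoding variant rose by 0.43 (SE 0.092, adjusted p = 0.0468), from -3.17 to -2.89 in young to -2.65 to -2.44 in aged pools, and the probe of its coding transcript had a log2FC of 0.05. The difference between those probes was not tested, and no call for Trappc13 held when a pool was left out. Its call held in 2 of 20 alternative settings. It was lost with normexp (log2FC 0.23, adjusted p = 0.354, limma), with every other normalization and with the authors' table.

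**Figure D3:**
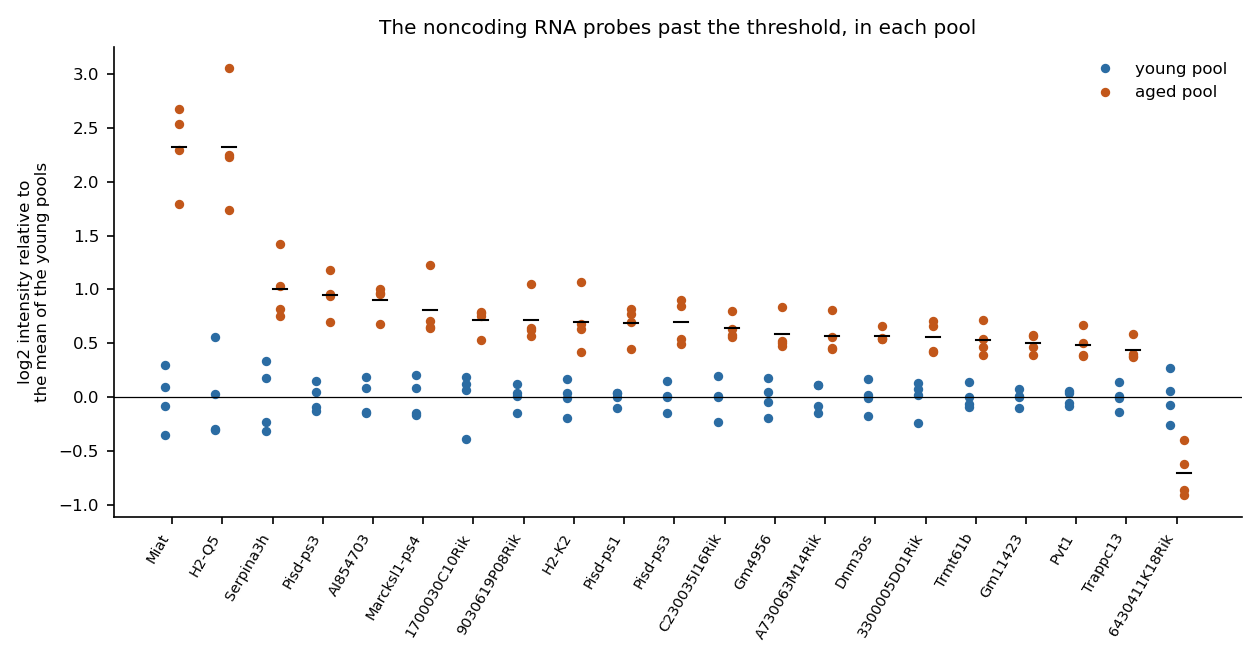
Log2 intensity of each young (blue) and aged (orange) pool relative to the mean of the young pools, for the 21 noncoding RNA probes past an adjusted p of 0.05, in order of log2FC; short black lines are the means of the aged pools. In all 21 the young and aged pools do not overlap, and Miat and H2-Q5 stand apart with all aged pools more than 1 unit above all young pools.

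Noncoding RNA probes were set beside the probe of a coding partner where one was tested. For the 18 tested probes whose name marks a pseudogene of a gene that was also tested, the log2FC of pseudogene and parent had a Pearson r of 0.77 and a Spearman rho of 0.70. For 38 opposite-strand RNAs and their partner genes, r was -0.17 and rho -0.11. For 26 noncoding variants and the coding transcript of the same gene, r was 0.40 and rho 0.14. These correlations are across genes on the same 8 arrays, genes are not independent replicates, and 3 of the 18 pseudogene pairs share Pisd. The 4 called pseudogene probes, paired with Pisd or Marcksl1, had the highest log2FC of the 18, as did their parents. Much of the Pearson r for pseudogenes rests on these 4. Among pseudogenes away from the calls, Tubb2a-ps2 (-0.34) and Tubb2a (-0.36), Gpr137b-ps (0.23) and Gpr137b (0.24), and Tyms-ps (0.27) and Tyms (0.28) had like values, whereas Bambi-ps1 (0.19) and Bambi (-0.30) and Hmga2-ps1 (-0.24) and Hmga2 (0.21) lay on opposite sides of 0. None of these passed the threshold.

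**Figure D4:**
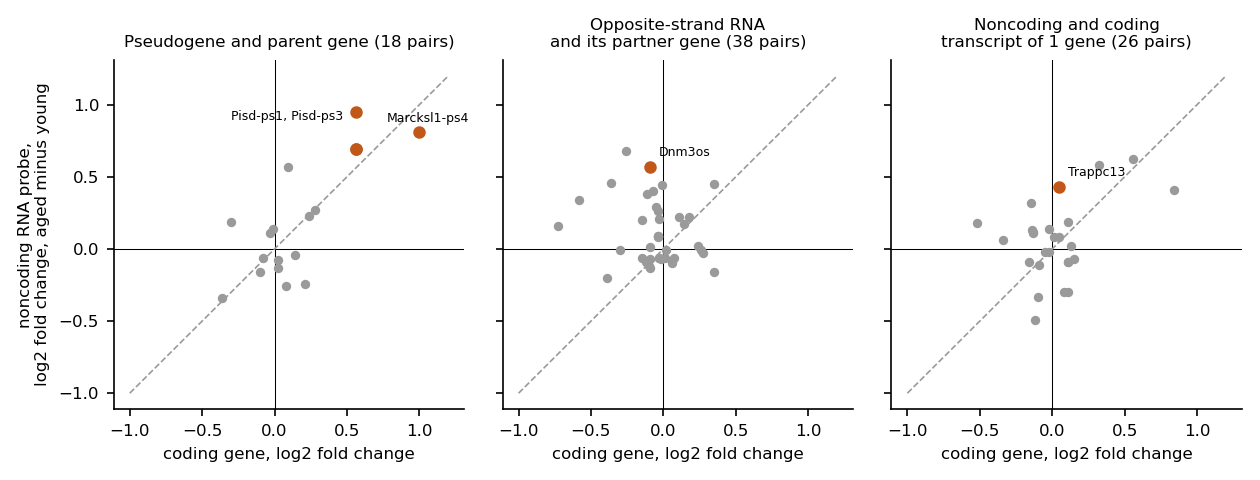
Log2FC (aged minus young) of noncoding RNA probes (vertical axis) against that of their coding partner (horizontal axis) for 18 pseudogenes, 38 opposite-strand RNAs and 26 noncoding variants; the dashed line marks equal values and large orange points are noncoding RNA probes past an adjusted p of 0.05. Values of pseudogene and parent have a Pearson r of 0.77, much of it from the 4 orange points, and those of opposite-strand RNAs and partners one of -0.17. The median distance from equal values is 0.15 in both.

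In RefSeq order, the 20 genes with a called probe had 40 tested coding neighbours or overlapping genes over 19 placed loci. By 1 probe for each neighbour, 7 rose and 0 fell. The 7 were Serpina3g, Serpina3i, H2-K1, Ly6g, Akr1c19, Akr1c12 and Gsta3, which all lie beside a pseudogene. H2-Q7, beside H2-Q5, did not pass by that probe but rose by another (log2FC 1.52, adjusted p = 0.0349, limma). By the same probes, none of the coding neighbours of the lncRNAs that rose passed the threshold, which includes Mn1 and Cryba4 beside Miat (0.12 and 0.14).

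Genes that host small nucleolar RNAs in their introns showed little difference. Of 19 tested probes, 0 passed, 16 had a log2FC above 0, and the median was 0.10. No probe reached an unadjusted p under 0.05 in limma. The largest values were 0.28 for Snhg3 and 0.21 for Snhg14 and Snhg16. Gas5, named for its accumulation in growth-arrested cells, had 2 probes at 5.49 to 5.93 and 5.16 to 5.66 in young and 5.83 to 5.98 and 5.51 to 5.62 in aged pools, and a log2FC of 0.10 for both. Snhg1 read -0.88 to 0.14 in young and -0.53 to -0.10 in aged pools, with a log2FC of -0.01.

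Among 14 tested probes of nuclear and chromatin-associated lncRNAs, 2 rose, those of Miat and Pvt1, and the median was 0.17. Neat1, the scaffold of nuclear paraspeckles, had log2FC of 0.43 (SE 0.191, adjusted p = 0.381) and 0.32 by its probes, and its groups overlapped. Firre, a lncRNA of the X chromosome, lay just outside the threshold at 0.50 (adjusted p = 0.0538), with young pools at -0.05 to 0.22 and aged pools at 0.43 to 0.75. Tug1 had a log2FC of -0.10, and the 4 probes of Norad, which binds Pumilio proteins, lay between -0.13 and -0.02. Xist was above background on no array, in cells of male mice, and no probe among the 2463 bears the symbol Malat1.

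Small structural RNAs were the class detected most often. Of the 27 tested probes of the list, 21 had a log2FC below 0 and 0 passed, with a median of -0.08, and 3 reached an unadjusted p under 0.05 in limma. Snora34, a guide of pseudouridylation, read -0.38, -0.18, -1.04 and -0.32 in young replicates 2 to 5 and -0.91, -1.23, -1.10 and -0.80 in aged replicates 1 to 4. Its groups overlapped through young replicate 4, and the log2FC was -0.53 (SE 0.188, adjusted p = 0.238), or -0.71 without that pool (adjusted p = 0.0387). Rpph1, the RNA of ribonuclease P, had a log2FC of -0.51 (adjusted p = 0.419) with a wide spread among young pools, from -1.09 to 0.08.

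Of 10 probes for microRNA host transcripts chosen by name, Dnm3os rose, and the median was 0.11. Of 14 probes for p53, senescence and growth control transcripts, that of Pvt1 rose, and the median was 0.11. Dleu2 read lower in aged pools without passing (-0.60, adjusted p = 0.177). Of 9 probes for heart, muscle and fibroblast transcripts, those of Miat and Dnm3os rose, and the median was -0.06. Carmn, a lncRNA of the smooth muscle locus of miR-143 and miR-145, had a log2FC of 0.10 with overlapping groups, Bvht, or braveheart, -0.06, and the 2 probes of Mir99ahg -0.29 and -0.15. Of 9 probes for Hox cluster and developmental regulator transcripts, 0 passed, and 0 had an unadjusted p under 0.05. Fendrr, a lncRNA needed for heart and body wall development, had the largest value, 0.93 (SE 0.436, adjusted p = 0.415), with young pools spread from -5.23 to -2.86 and aged pools from -3.66 to -2.99. Hoxaas3 had -0.31. Of 4 probes for immune and interferon-linked transcripts, 0 passed and 0 had an unadjusted p under 0.05. Mirt1 had 0.59 (adjusted p = 0.624), and the 2 probes of Morrbid, a regulator of myeloid cell survival, 0.22 and -0.21.

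Of 48 tested antisense and opposite-strand transcripts, Dnm3os alone rose, 24 had a log2FC above and 24 below 0, and the median was -0.002. Of 34 probes named as pseudogenes or related sequences, 4 rose, those of Pisd-ps1, Pisd-ps3 and Marcksl1-ps4, and the median was -0.004. These lists share members, and over all tested probes of the array 1.93% rose with a median log2FC of -0.003.

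**Figure D5:**
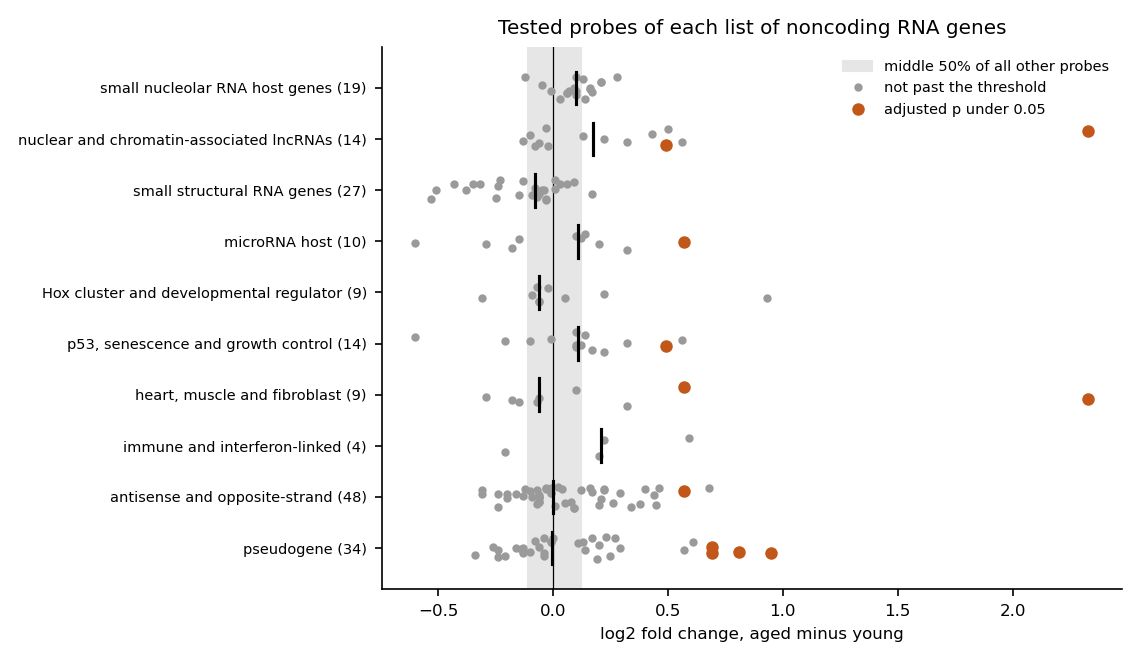
Log2FC (aged minus young, horizontal axis) of the tested probes of each of 10 lists of noncoding RNA genes, with the number of probes in brackets; orange points passed an adjusted p of 0.05, black lines are list medians and the grey band is the interquartile range of all other probes. The list medians lie between -0.08 and 0.21, and 21 of the 27 small structural RNA probes lie below 0.

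Just outside the threshold, after 6430411K18Rik at an adjusted p of 0.0499, came A930015D03Rik (log2FC 0.81, adjusted p = 0.0504), Firre, BB123696 (0.94, 0.057), Gm10584 (0.58, 0.0581) and Mexis (0.46, 0.0644). In all 5 the aged pools lay above the young pools, as for 6.11% of all tested probes. BB123696 and Gm10584 were above background on 3 of 4 young and all 4 aged arrays, so they were tested through the aged group alone. The largest log2FC that did not pass was 1.41, for the dim probe of Gm14015 (adjusted p = 0.396), and the lowest of all was -0.89, for E030013I19Rik (adjusted p = 0.27), both chosen after their values were seen.

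Precision fell with signal. The median SE of the log2FC was 0.206 in the dimmest, 0.152 in the middle and 0.118 in the brightest of 3 equal groups of tested noncoding RNA probes, and 0.126 over all tested probes. The numbers that rose were 2, 8 and 10. Where 44 symbols had 2 or more tested probes with a RefSeq noncoding accession, the log2FC of the 2 brightest had a Pearson r of 0.57 and a Spearman rho of 0.50, with a median difference of 0.08. Both probes rose for 1 symbol, Pisd-ps3, and 1 of 2 for Pvt1 and for Trmt61b.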

How the data were processed

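RNA of 8 pools of sorted cMSCs was hybridised by the authors to Agilent 1-colour (Cy3) arrays, all 8 on 1 slide with 2 rows of 4. The deposited scanner files hold intensity values, background-subtracted by Agilent Feature Extraction 10.10.1.1, which the submitters' processing notes name with limma. A deposited table of log2 values, quantile-normalized by the authors, served as an alternative, and columns of the authors' own comparisons were not used. Each array's log2 processed intensity was set relative to its 75th percentile, which was 472.1 to 800.7. Spots marked as outliers were left out and spots of a probe averaged. Of all spots, 57.81% to 63.4% were well above background and 0 were saturated, and 4 arrays per group limit the precision. Between arrays of one group the correlation over tested noncoding RNA probes was 0.9811 to 0.9907. Probes were tested with limma 3.58.1 (R 4.3.3; tables with Python 3.11.15, pandas 2.3.3 and numpy 2.4.6), and the procedure was tested on simulated data. Benjamini-Hochberg adjustment ran over 30824 probes.

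Accessions were named through the RefSeq table of GRCm38.p6, which also gave gene classes, gene order and microRNA sequences. Of the 2463 probes, 2393 were named through the accession, 43 by a current symbol, and 27 kept the name of the array design. Positions of probes come from the array files and were not checked against a genome. Of the tested probes, 19 also list a coding transcript, and 2 lack the value of 1 pool. For coding partners, the tested probe with a coding accession and the highest mean level in young pools was used where a gene had several. The genes named in the text were, by rule, the 14 largest increases and 14 largest decreases past the threshold whose groups did not overlap (1 probe per symbol), up to 4 called members of each list or the 2 largest where none was called, probes above background throughout one group only, other probes and partner genes of these, and Malat1, Neat1, Xist, Gas5, Snhg1, Dnm3os, Tug1, Miat, Pvt1 and Carmn. Other members of a list, pair or neighbourhood are given as examples chosen after their values were seen. In addition 3300005D01Rik, Trmt61b, Gm11423 and Trappc13 were named after their values were seen. The members, lists and relatives were chosen with earlier results of these data known. Groups follow the labels. Alternatives were other normalizations, background correction, filters, limma options, blocks, the authors' table and leaving out each pool in turn.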

Additional observations from a re-analysis of the deposited data

Results flagged for a closer look

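Of 78 groups of 4 pools over the named and tested probes, 6 held a pool that lay far from the other 3 by the size of its gap relative to the range of the group, and chance gives about 5%. AI854703 read -0.71 in aged replicate 2 and -0.43 to -0.39 in the other aged pools. In aged replicate 4, Marcksl1-ps4 read -1.08 against -1.67 to -1.60, 9030619P08Rik 3.43 against 2.95 to 3.02, and Gm4956 3.22 against 2.86 to 2.90. Dnm3os read 0.97 in aged replicate 3 and 0.85 to 0.86 in the others, and Trappc13 -2.44 in aged replicate 1 and -2.66 to -2.63 in the others.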

How the results depend on the processing

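All 21 called noncoding RNA probes kept their direction in every setting that tested them, and 5 were called in each of the 8 fits that left out a pool: Miat, H2-Q5, the Pisd-ps3 probe shown, AI854703 and Pisd-ps1. A730063M14Rik, Trappc13 and 3300005D01Rik were called in none of those fits. The number that rose, 20 in the report, was 11 with median scaling, 5 with no filter on dim probes, 31 with array weights and 31 at the methods' thresholds. It was 13 without the pseudogenes of the class I histocompatibility, Serpina3, Pisd and Marcksl1 families, an alternative chosen after seeing the data. Leaving out a pool gave 6 to 14: 6 without aged replicate 3, 7 without young replicate 3, 8 without young replicate 5, 10 without young replicate 4 or aged replicate 1, and 14 without any other. The number that fell, 1 in the report, was 0 with median scaling, cyclic loess, normexp, slide row as a block, or only probes above background on all 8 arrays (in the fit, or in the count alone, which was added after seeing the data), 2 with limma's trend and robust options, 4 with array weights, 3 at the methods' thresholds, and 0 to 1 when a pool was left out. 6430411K18Rik itself was called in 5 of the 20 alternative settings that tested it. With the trend and robust options, with the authors' table, and without aged replicate 2 or young replicate 4, the probes that fell were others. The cause was not tested. The same probes remained called in 18 of 21 cases with quantile normalization, 17 with the authors' table, 14 with normexp and 9 with median scaling, which moved the median of all probes to -0.05.

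With the replicate block by pool number, 0 noncoding RNA probes rose and 0 fell in limma, with 77 higher and 22 lower at an unadjusted p under 0.05. With the block by pool code, 3 rose and 0 fell. The deviations of pools from their group means had correlations of 0.17, -0.147 and -0.229 between pools of the same number, and of -0.229, 0.15, 0.17 and -0.147 between pools of the same code, so neither was taken to pair the pools.

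With Agilent's other detection mark, signal positive and significant, 56.6% of the probes were detected in young and 58.2% in aged pools. Some small differences turned their sign: Gas5 by its second probe to -0.01 with array weights, Carmn to -0.00 without aged replicate 1 (range over left-out pools -0.00 to 0.23), Hoxaas3 to 0.10 without young replicate 2 (-0.57 to 0.10), and Snhg1 to 0.02, 0.02, 0.06 and 0.15 without young replicate 3, aged replicate 2, aged replicate 3 and young replicate 2 (-0.19 to 0.15). The second Pvt1 probe passed with the trend and robust options (adjusted p = 0.034, limma). The dimmest probes have the largest errors, so small differences of lncRNAs were often not detectable.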
